A study of Mus musculus with 2 samples.

Results

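The 8 CXC chemokine genes Cxcl1, Cxcl2, Cxcl5, Cxcl9, Cxcl10, Cxcl12, Cxcl14 and Cxcl16 were followed across the cell classes of 2 libraries of single-cell RNA made from the brains of Balb/c mice, in a study of a breast cancer brain metastasis model. They were chosen by gene symbol, and all 8 were found among the 29217 genes listed in either library. One library was titled positive and the other control. Both carry the label TNBC, for triple-negative breast cancer, and 4T1 is a mouse mammary carcinoma line of that type. The treatment field goes against the titles, since it gives the library titled positive as being without metastasis and the library titled control as being with it. The groups are therefore called by title, and no direction with or without metastasis is drawn. The labels give neither the age nor the number of mice, and there was 1 library per group, so differences between the libraries have no replicate check and no p-value is given.

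CXC chemokines are small secreted proteins that steer leukocytes through G protein-coupled receptors. Cxcl1, Cxcl2 and Cxcl5 draw neutrophils through Cxcr2 and are classical targets of NF-kB. Cxcl9 and Cxcl10 are induced by interferons and draw activated T cells and natural killer cells through Cxcr3. Cxcl12 binds Cxcr4 and the scavenging receptor Ackr3 and is made in brain by vascular and meningeal cells, Cxcl14 is a chemokine made by many tissues at rest, and Cxcl16 is a membrane-bound chemokine that is shed from the cell and binds Cxcr6.

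Depth was 98141261 unique molecular identifiers (UMIs, each marking 1 captured molecule) from 10842 barcodes in the titled positive library and 55657687 from 10417 barcodes in the titled control library, and 149 barcode sequences occurred in both. After filtering, 10537 titled positive and 9806 titled control cells were kept, and classes were named from marker genes, with the 8 chemokines kept out of the clustering. Each class carries "like" because no annotation of the cells was used. In the 20 class and library combinations with at least 50 cells, the class's own markers summed to a higher level than in any other class of that library. This follows in large part from the naming, which used the same markers, and is no independent check of the names. Carcinoma-like cells made up 56.1% of the kept titled positive cells (5909), and among the titled control cells there were 0 of 9806, which allows a share of up to 0.0376% by the exact binomial interval. The titled positive library held 2240 monocyte/macrophage-like, 72 fibroblast-like, 102 endothelial cell-like, 172 microglia-like, 411 oligodendrocyte-like and 198 T cell-like cells. The titled control library held 83 monocyte/macrophage-like, 96 fibroblast-like, 592 endothelial cell-like, 2368 microglia-like, 3517 oligodendrocyte-like and 59 T cell-like cells. Astrocyte-like, ependymal cell-like, pericyte-like, smooth muscle cell-like and dendritic cell-like cells reached 50 cells in the titled control library only. Neutrophil-like and natural killer cell-like cells did so in the titled positive library only. Cells of clusters that matched more than 1 class were called mixed and put in no class. So were cells of clusters whose leading genes held more markers of another class than of the best match. Of these, c5.1, c5.5 and c5.7 of the titled positive library (168, 77 and 120 cells) matched oligodendrocytes. They were set aside for the neuron marker Tubb3 among their leading genes. Mixed cells were 8.82% of titled positive and 4.81% of titled control cells. The mixed cells held 12.2% of the Cxcl10 and 17.2% of the Cxcl12 UMIs of the titled positive library and 26.9% of the Cxcl2 UMIs of the titled control library. A level is the summed UMI count of the gene in a class, scaled as counts to a common total of class UMIs (CPM), with a 95% Poisson interval. Intervals cover counting error only, and where a few cells hold most of a gene's UMIs they are too narrow.

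Free RNA, which gives UMIs in cells that do not make a transcript, was estimated as the median level, in a class, of markers of other lineages, as a percentage of their level over all kept cells of the library. This estimate cannot tell free RNA from doublets that were not removed. For immune classes it used no markers of other immune classes, so macrophage RNA in T cell-like cells, for example, was not measured by it directly. Among titled positive cells this estimate was 43.1% for T cell-like cells, 43.3% for neutrophil-like cells and 50.2% for natural killer cell-like cells. It lay between 14.0% and 19.5% in the other titled positive classes. The titled control classes lay between 7.01% and 13.9%, except for pericyte-like cells at 34.4%.

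Cxcl1, Cxcl2 and Cxcl5 lie near each other on chromosome 5 of GRCm38 (Cxcl5 at chr5:90759360-90761624, Cxcl1 at chr5:90891241-90893115 and Cxcl2 at chr5:90903871-90905938, all on the plus strand), and Cxcl9 (chr5:92321347-92328079) and Cxcl10 (chr5:92346638-92348889) neighbour each other on the minus strand. Cxcl12 is at chr6:117168535-117181367 on the plus strand, and Cxcl14 (chr13:56288643-56296551) and Cxcl16 (chr11:70453983-70459984) are on the minus strand. All 8 are annotated as protein-coding. The RefSeq promoter table (GRCm38.p6) held 6 of the 8, without Cxcl5 and Cxcl16. The 250 bases before the start are printed for 5 of them, the neutrophil-directed pair Cxcl1 and Cxcl2, the interferon-induced pair Cxcl9 and Cxcl10, and Cxcl12, which differed between the libraries in the other direction. Capitals mark matches, on either strand, to GGGNNNNNCC (the general letters of a kappaB site, which NF-kB binds) or GAAANNGAAA (the general letters of an interferon-stimulated element).
Cxcl1 (chr5:90890995-90891244, plus strand): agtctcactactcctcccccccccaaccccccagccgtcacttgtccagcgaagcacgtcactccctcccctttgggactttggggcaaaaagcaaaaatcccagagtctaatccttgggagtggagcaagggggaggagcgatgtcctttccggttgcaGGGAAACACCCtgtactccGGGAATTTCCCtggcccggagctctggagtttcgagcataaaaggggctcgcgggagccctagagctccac
Cxcl2 (chr5:90903649-90903898, plus strand): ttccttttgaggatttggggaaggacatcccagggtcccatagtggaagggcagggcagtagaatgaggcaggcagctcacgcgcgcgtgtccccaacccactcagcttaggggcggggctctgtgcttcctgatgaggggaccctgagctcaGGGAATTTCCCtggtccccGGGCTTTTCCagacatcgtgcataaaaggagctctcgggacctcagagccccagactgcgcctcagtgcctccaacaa
Cxcl9 (chr5:92328080-92328329, minus strand): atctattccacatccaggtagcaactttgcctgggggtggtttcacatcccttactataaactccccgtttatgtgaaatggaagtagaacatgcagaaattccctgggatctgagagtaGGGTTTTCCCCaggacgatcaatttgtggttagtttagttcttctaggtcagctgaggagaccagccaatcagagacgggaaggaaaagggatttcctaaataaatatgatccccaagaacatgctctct
Cxcl10 (chr5:92348890-92349139, minus strand): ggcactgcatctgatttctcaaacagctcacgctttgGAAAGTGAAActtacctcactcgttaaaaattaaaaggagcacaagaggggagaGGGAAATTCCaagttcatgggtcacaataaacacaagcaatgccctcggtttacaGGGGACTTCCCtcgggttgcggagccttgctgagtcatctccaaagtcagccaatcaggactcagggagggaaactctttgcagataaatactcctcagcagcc
Cxcl12 (chr6:117168285-117168534, plus strand): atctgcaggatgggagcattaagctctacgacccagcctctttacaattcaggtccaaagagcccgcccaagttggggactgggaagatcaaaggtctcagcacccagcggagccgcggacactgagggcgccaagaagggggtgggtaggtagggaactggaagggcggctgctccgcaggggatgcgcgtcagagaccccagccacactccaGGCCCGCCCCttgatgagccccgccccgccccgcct
Motifs were counted in windows from 250 bases before to 50 bases after each start, and overlapping matches were each counted. The kappaB letters occurred in 5 of the 6 members with a promoter (all but Cxcl14), and in 50.8% of the 32851 promoters of the same length that were counted. All promoters means these 32851 here, and the promoters of a whole chromosome were left out of them. Cxcl1 and Cxcl2 shared the exact letters GGGAATTTCC, which start at position -71 in Cxcl1 and -97 in Cxcl2 counted from the start site. Those letters, singled out after the pair was seen to share them, occurred in 29 of the 32851 promoters (0.0883%). The interferon-stimulated element letters were found in Cxcl10 at position -213 and in Cxcl14 at position -172, and in 3.44% of all promoters. A gamma-activated site, TTCNNNGAA, was found in Cxcl14 only among the 6 (8.3% of all promoters), and TATAAA in Cxcl9 only (13.6% of all promoters). These matches describe letters and are not measured binding sites.

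The class with the highest level and the class with the most molecules were often not the same. In the titled positive library, fibroblast-like cells had the highest level of 6 of the 8 genes (Cxcl1, Cxcl5, Cxcl9, Cxcl10, Cxcl12 and Cxcl14), although they were 72 of 10537 cells. For Cxcl9 the lead was within the intervals, and it passed to monocyte/macrophage-like cells without 1 cell and under 4 other alternatives. The other two, Cxcl2 and Cxcl16, were highest in monocyte/macrophage-like cells. Among titled control cells the highest levels were spread over 5 classes. There, monocyte/macrophage-like cells led for Cxcl1, Cxcl2 and Cxcl9, astrocyte-like cells for Cxcl5 and Cxcl14, ependymal cell-like cells for Cxcl10, fibroblast-like cells for Cxcl12 and microglia-like cells for Cxcl16. By molecules, carcinoma-like cells held most of the Cxcl1 and Cxcl5 UMIs of the titled positive library, and monocyte/macrophage-like cells held most of those of Cxcl2, Cxcl9, Cxcl14 and Cxcl16.

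**Figure D1:**
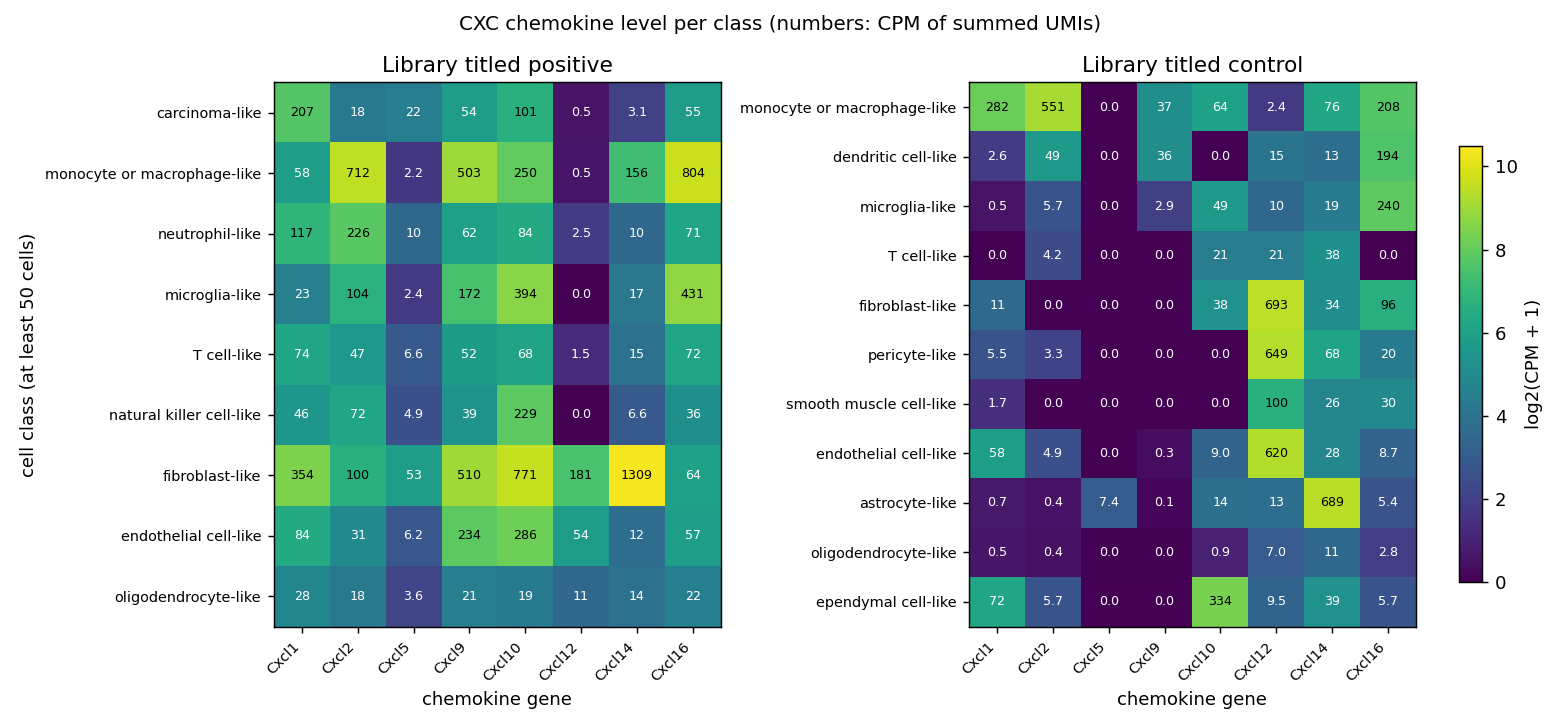
Level of each chemokine (columns) in each class of at least 50 cells (rows) of the titled positive library, left, and the titled control library, right. Numbers are CPM of summed UMIs and colour is log2(CPM + 1). The fibroblast-like row is bright for most genes on the left (1309 CPM for Cxcl14), and for Cxcl12 only on the right (693 CPM).

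**Figure D2:**
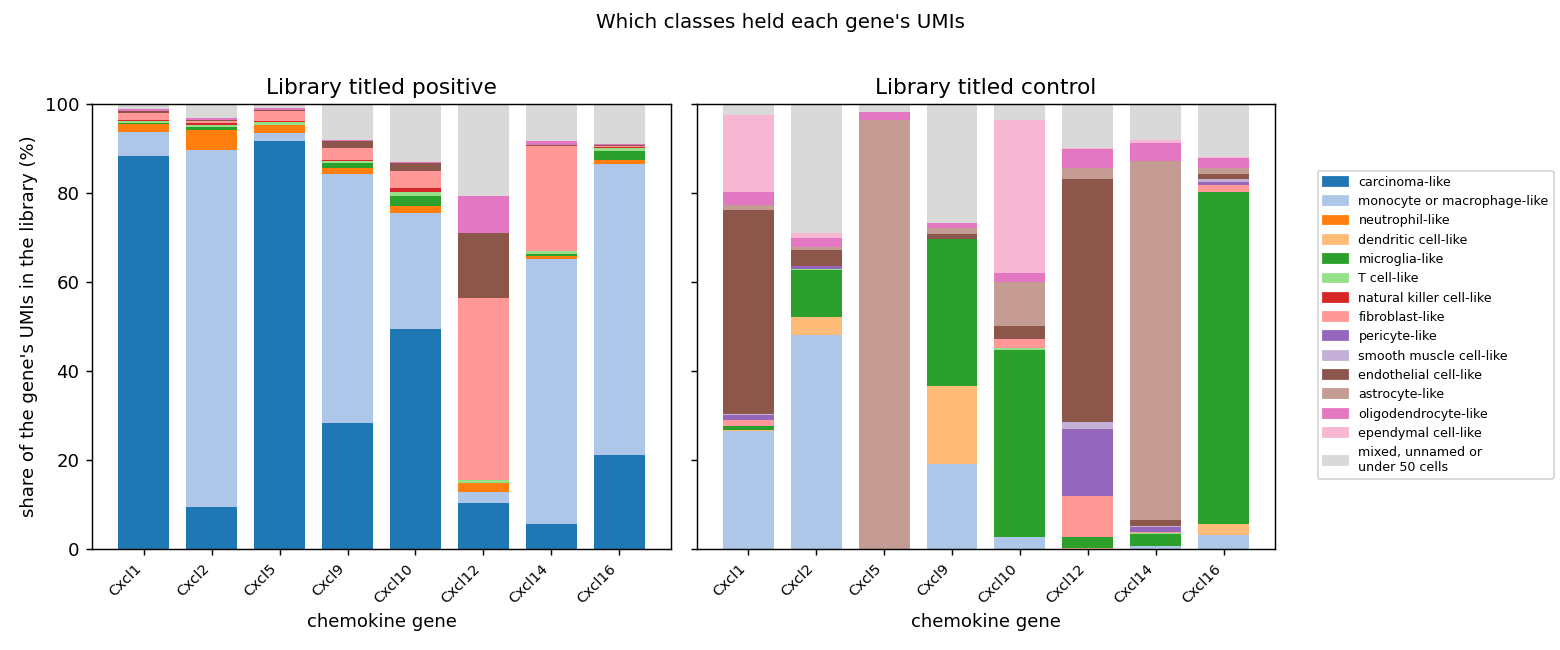
Share of each gene's UMIs (vertical axis, percent of the kept cells' UMIs of that gene in the library) held by each class, titled positive left and titled control right. Carcinoma-like cells held 88.4% of Cxcl1 UMIs in the titled positive library, and astrocyte-like cells held 80.7% of Cxcl14 UMIs in the titled control library.

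Among the neutrophil-directed chemokines, Cxcl1 had 354 CPM (95% interval 309.8 to 402.3) in fibroblast-like cells of the titled positive library. Carcinoma-like cells had 207 CPM (203.1 to 210.04), neutrophil-like cells 117 CPM, and the remaining 6 classes 23.1 to 83.7 CPM. The fibroblast-like and carcinoma-like intervals did not overlap, and that of neutrophil-like cells overlapped that of endothelial cell-like cells. Carcinoma-like cells, the most numerous class, held 13512 of the 15279 Cxcl1 UMIs (88.4%), against 233 UMIs (1.52%) in fibroblast-like cells. A Cxcl1 UMI was found in 43.4% of carcinoma-like cells, against 12.9% of oligodendrocyte-like cells of the same library, with median depths of 10238 and 4840 UMIs per cell. The tenth of carcinoma-like cells with the most Cxcl1 held 71.3% of their Cxcl1 UMIs. Leaving out the 1 highest cell put the fibroblast-like level at 268 CPM.

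Cxcl1 of the titled control library came from few cells. Its monocyte/macrophage-like cells had 282 CPM, but 106 of their 115 UMIs were in 1 cell, and without it their level was 23.7 CPM. Ependymal cell-like cells had 72.1 CPM and endothelial cell-like cells 58.2 CPM, with overlapping intervals, and endothelial cell-like cells held the most Cxcl1 UMIs (200 of 436, in 32 of 592 cells). Over all kept cells Cxcl1 was at 162 CPM in the titled positive library and 8.53 CPM in the titled control library.

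Cxcl2 had its highest level in monocyte/macrophage-like cells of both libraries, in the titled control library from 10 of 83 cells. There the highest class became dendritic cell-like, ependymal cell-like or pericyte-like under 4 of the alternatives run. Fewer classes could be compared under those 4. Whether monocyte/macrophage-like cells still had enough cells to be ranked there is not reported. In the main setting, monocyte/macrophage-like cells had 712 CPM (698.3 to 726.4) in the titled positive library and 551 CPM (481.3 to 627.9) in the titled control library. The log2 ratio was 0.37 (0.18 to 0.57), short of a 2-fold difference. Monocyte/macrophage-like cells held 80.4% of Cxcl2 UMIs in the titled positive library, against 48.1% in the titled control library. There, 1 monocyte/macrophage-like cell held 38.7% of the class total, and without the highest cells the log2 ratio was 0.96. Neutrophil-like cells of the titled positive library came next with 226 CPM (207.4 to 246), which was 31.7% of the macrophage level where the median macrophage marker stood at 27.3% in them. The free RNA estimate, from markers of other lineages, would give 56.7 CPM there, below that interval. How much of the neutrophil-like Cxcl2 was free RNA was not tested. The 2 large macrophage clusters differed, with 953 CPM in cluster c7 (1085 cells, led by Arg1, Chil3 and Ly6i) and 555 CPM in cluster c8 (1145 cells, led by Arg1, Ccl8 and Mmp12).

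Cxcl5 was the least abundant of the neutrophil-directed group. It had 53.1 CPM (37.02 to 73.9) in fibroblast-like cells and 21.7 CPM (20.6 to 22.9) in carcinoma-like cells of the titled positive library, and carcinoma-like cells held 1420 of its 1549 UMIs (91.7%). Within the carcinoma-like cells it was uneven, with 69.6 CPM in cluster c0 (974 cells, led by Fetub, Cldn4, Ltf and Wfdc2), 10.455 CPM in cluster c1 (2329 cells) and 16.3 CPM in cluster c2 (2606 cells). Cxcl1 was less uneven over the same clusters, at 260 CPM (c0), 163 CPM (c1) and 238 CPM (c2). Only 56 Cxcl5 UMIs were found in the titled control library and 54 of them were in astrocyte-like cells, at 7.42 CPM (5.57 to 9.68). They were concentrated in the astrocyte-like cluster c23 (15.9 CPM, 612 cells, led by Gdf10 and Mybpc1), against 0 CPM in c18 and 0.6 CPM in c28.

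The interferon-induced pair was high in fibroblast-like, myeloid and endothelial cell-like cells of the titled positive library, and each gene had a lower overall level in the titled control library. Cxcl9 had 510.2 CPM (457.1 to 567.8) in fibroblast-like cells and 503 CPM (491.01 to 514.6) in monocyte/macrophage-like cells, levels that do not differ beyond their intervals. Endothelial cell-like cells followed with 234 CPM and microglia-like cells with 172 CPM. Of the 12475 Cxcl9 UMIs, monocyte/macrophage-like cells held 56.2% and carcinoma-like cells 28.2%. In fibroblast-like cells 139 of the 336 Cxcl9 UMIs were in 1 cell, and without it their level was 307 CPM, below the macrophage level. The titled control library held 79 Cxcl9 UMIs in all, with 36.7 CPM in monocyte/macrophage-like cells and 35.8 CPM in dendritic cell-like cells.

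Cxcl10 had 771 CPM (705.8 to 841.5) in fibroblast-like cells, 394 CPM (352.7 to 439.7) in microglia-like cells, 286 CPM in endothelial cell-like cells, 249.96 CPM in monocyte/macrophage-like cells and 229 CPM in natural killer cell-like cells of the titled positive library. The last 3 did not differ among themselves beyond their intervals, and 43.6% of the natural killer cell UMIs were in 1 cell. Carcinoma-like cells had 101 CPM and held 49.6% of the 13395 UMIs. The highest titled control level was in ependymal cell-like cells, the ciliated lining of the ventricles, with 334 CPM (299.8 to 370.5) against 63.7 CPM in monocyte/macrophage-like cells and 49.004 CPM in microglia-like cells. Microglia-like cells held 42.2% and ependymal cell-like cells 34.3% of its 1027 UMIs. The spread was narrow there too, since 3.08% of 2368 microglia-like cells had a Cxcl10 UMI at a median depth of 3232 UMIs, against 0.63% of oligodendrocyte-like cells at 6168 UMIs. Cxcl10 overlaps Art3 on the other strand and the strand setting of the counting is not given. The counts of the pair stood apart in both directions, with 508 Cxcl10 UMIs and 1 Art3 UMI in titled positive fibroblast-like cells, and 0 Cxcl10 UMIs and 431 Art3 UMIs in titled control pericyte-like cells. Titled control ependymal cell-like cells had 352 Cxcl10 and 39 Art3 UMIs.

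Over all kept cells, Cxcl12 and Cxcl14 were the 2 members with a lower level in the titled positive library. Cxcl12 was at 3.09 CPM there and at 76.02 CPM in the titled control library. Its titled positive level was 181 CPM (149.7 to 216.2) in fibroblast-like cells and 53.7 CPM (38.9 to 72.4) in endothelial cell-like cells, and at most 10.7 CPM in the other classes. Among titled control cells, fibroblast-like cells (693 CPM, 623.9 to 768.7), pericyte-like cells (649 CPM, 597.4 to 703.6) and endothelial cell-like cells (620.1 CPM, 594.1 to 647.04) did not differ beyond their intervals. Smooth muscle cell-like cells followed with 99.5 CPM. Endothelial cell-like cells held 54.8% of the 3887 Cxcl12 UMIs of the titled control library. The difference was present within classes, with a log2 ratio of -3.51 (-4.00 to -3.09) in endothelial cell-like cells, nearly all of which came from the same cluster, c14, in both libraries, and -1.94 (-2.25 to -1.64) in fibroblast-like cells. Among those endothelial cell-like cells, the venous gene Ackr1 was found in 50% of titled positive and 11.7% of titled control cells, and its part in the Cxcl12 difference was not tested. Of the titled positive fibroblast-like cells, 44 of 72 were in a cluster with 0 titled control cells. Within the clusters that both libraries share, the ratio was -1.04 (-1.55 to -0.54) in c20 and -0.80 (-1.37 to -0.30) in c21, the second short of 2-fold.

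Cxcl14 had different leading classes in the 2 libraries. It was at 38.6 CPM over the kept cells of the titled positive library and 121 CPM over those of the titled control library. Fibroblast-like cells of the titled positive library had 1309 CPM (1223 to 1399), the highest level of any member in any class, and monocyte/macrophage-like cells had 156 CPM (149.6 to 162.8). The other 7 classes were between 3.09 and 17 CPM. Of the 3642 UMIs, monocyte/macrophage-like cells held 59.7% and fibroblast-like cells 23.7%. In the titled control library astrocyte-like cells had 689 CPM (669.6 to 707.9) and held 80.7% of the 6212 UMIs, and fibroblast-like cells had 34.5 CPM. A Cxcl14 UMI was found in 81.6% of astrocyte-like cells, against 6.57% of oligodendrocyte-like cells, at median depths of 3086 and 6168 UMIs. The astrocyte-like clusters were at 1173 CPM in c18, 816 CPM in c28 and 294 CPM in c23. The titled positive library had 21 astrocyte-like cells, too few for a comparison, so fewer astrocytes captured and less Cxcl14 per astrocyte cannot be told apart there.

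Cxcl16 was a myeloid gene in both libraries. In the titled positive library monocyte/macrophage-like cells had 804 CPM (789.3 to 819.1) and microglia-like cells 431 CPM (387.2 to 478.1), and the other classes were between 22.2 and 72.2 CPM. Titled control microglia-like cells (240.2 CPM, 230.04 to 250.6), monocyte/macrophage-like cells (208 CPM, 166.3 to 257.4) and dendritic cell-like cells (194 CPM, 152.95 to 242.99) overlapped with their neighbours. The share held by monocyte/macrophage-like cells was 65.5% of 17100 UMIs in the titled positive library, and that of microglia-like cells 74.5% of 2847 UMIs in the titled control library. Among the titled control microglia-like cells, the small clusters c26.2 and c26.4, led by Cxcl13, Cd72 and Ch25h, had 765.5 and 728.5 CPM, against 185 CPM in the large cluster c25. A cluster of 39 cells of the titled positive library led by Ccl17, Btla, Napsa and Itgae had 654 CPM and was left unnamed. Cxcl16 overlaps Zmynd15 on the other strand. Zmynd15 had 511 UMIs, against 11208 of Cxcl16, in monocyte/macrophage-like cells of the titled positive library.

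The fibroblast-like cells of the titled positive library fell into 3 clusters that differed in their chemokines, which had been kept out of the clustering. Cluster c17 (44 cells) was led by the collagens Col3a1, Col1a1 and Col1a2 and by Lrrc15, Lum and Tnc, and held 0 cells of the titled control library. It had 1888 CPM of Cxcl14, 709.6 CPM of Cxcl9, 493 CPM of Cxcl1, 131 CPM of Cxcl2 and 76.7 CPM of Cxcl5, and 65.7 CPM of Cxcl12. Of its 324 Cxcl9 UMIs 139 were in 1 cell, and without that cell its Cxcl9 was at 419.8 CPM. Clusters c20 (led by Dcn, Aldh1a2, Slc6a13 and Slc22a6) and c21 (led by Prg4, Slc47a1, Igfbp6 and Ogn) held 14 cells each and had 0 UMIs of Cxcl14 and Cxcl5. Their Cxcl10 was high instead, at 2589 CPM (2291 to 2915) in c20, where 14 of 14 cells had a UMI, and 922 CPM (740.6 to 1135) in c21, against 320 CPM (270 to 376.04) in c17. Cxcl12 was at 522 CPM in c20 and 352 CPM in c21.

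Both c20 and c21 also held cells of the titled control library, which allows a comparison between cells of one cluster. In c20, Cxcl10 was at 2589 CPM in the titled positive library and at 0 UMIs in the 21 cells of the titled control library, and Cxcl12 was at 522 CPM (393 to 679.02) in titled positive and 1074 CPM (865.05 to 1319) in titled control cells. In c21, Cxcl10 was at 922 CPM in titled positive and 45.7 CPM in titled control cells, and Cxcl12 at 352 CPM (244 to 492.3) in titled positive and 619.7 CPM (548.1 to 698.1) in titled control cells. Cluster c17 held 862 of the 862 Cxcl14 UMIs, 225 of the 233 Cxcl1 UMIs, 35 of the 35 Cxcl5 UMIs and 324 of the 336 Cxcl9 UMIs of the titled positive class, while Cxcl10 was also at least 2-fold higher within c20 and c21. At the level of cells, 23 of the 72 fibroblast-like cells had UMIs of both Cxcl1 (26 cells) and Cxcl14 (38 cells), and 21 had both Cxcl10 (34 cells) and Cxcl12 (29 cells), against 10 with both Cxcl10 and Cxcl14.

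**Figure D3:**
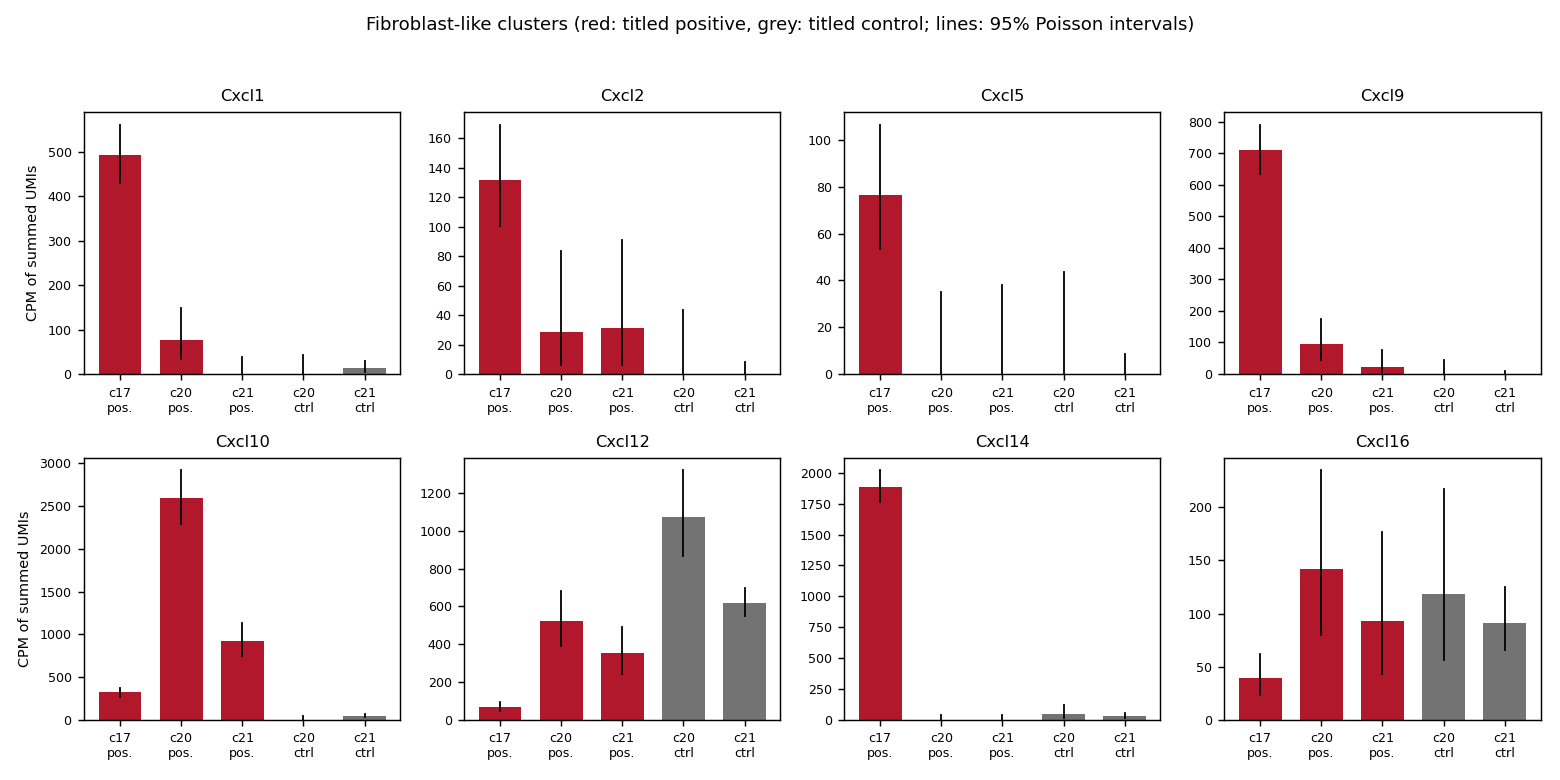
Level of each chemokine (CPM of summed UMIs, linear axes that differ between panels) in the fibroblast-like clusters c17, c20 and c21 of the titled positive library (red, pos.) and c20 and c21 of the titled control library (grey, ctrl), with 95% Poisson intervals as lines. Cxcl14 stands in c17 at 1888 CPM with 0 UMIs in c20 and c21 of the same library, and Cxcl10 stands highest in c20 at 2589 CPM.

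Between the libraries, 6 classes had at least 50 cells in both, giving 48 pairs of a chemokine and a class, of which 42 had at least 10 UMIs in one library. In 28 of them the level was at least 2-fold higher in the titled positive library, in 6 at least 2-fold lower, and in 8 neither. With the estimated free RNA subtracted, 29 pairs kept at least 10 UMIs, of which 19 were higher and 6 lower. These were not all calls that had stood before. Cxcl14 in microglia-like cells and Cxcl12 and Cxcl14 in oligodendrocyte-like cells were called higher only with the subtraction. Cxcl16 in fibroblast-like cells was called lower only with it. Cxcl9 and Cxcl10 were higher in all 6 classes as counted, and with the subtraction in fibroblast-like, endothelial cell-like, microglia-like and monocyte/macrophage-like cells. By class, fibroblast-like cells had 6 of 8 members higher, where 17.2% of all genes were, and 1 lower (Cxcl12), where 22.6% of all genes were. Endothelial cell-like cells had 4 of 7 higher (7.68% of all genes) and 2 lower (19.2% of all genes). Microglia-like cells had 4 of 7 higher (8.01% of all genes) and 1 lower (29.4% of all genes). Monocyte/macrophage-like cells had 4 of 7 higher (14.4% of all genes) and 1 lower (20.6% of all genes). Oligodendrocyte-like cells had 5 of 7 higher (13.8% of all genes) and 0 lower (18.6% of all genes), and T cell-like cells 5 of 6 higher (19.2% of all genes) and 1 lower (12% of all genes). In these last 2 classes the intervals of the titled positive levels of all 5 higher members include the level that the free RNA estimate would give, for example 22.2 CPM of Cxcl16 against an estimate of 27.3 CPM in oligodendrocyte-like cells and 72.2 CPM against 78.1 CPM in T cell-like cells. With the subtraction 0 pairs of T cell-like cells could be tested, and 2 of oligodendrocyte-like cells, neither of them among those 5. The interval of Cxcl1 in microglia-like cells also included the estimate, at 23.1 CPM against 27.7 CPM. So did that of Cxcl2 in endothelial cell-like cells, at 31.2 CPM (20.2 to 46.1) against 25.6 CPM. Neither was called with the subtraction. Endothelial cell-like and T cell-like cells came from one cluster or nearly so in both libraries, while the microglia-like cells were in clusters c10.4 and c10.7 of the titled positive library and in c25, c26.4 and c26.2 of the titled control library. The 10 microglial markers summed to 5931 CPM in titled positive and 30445 CPM in titled control microglia-like cells. The monocyte/macrophage-like cells of the titled positive library were mostly in c8 and c7, both led by Arg1. Those of the titled control library were mostly in c26.6 (led by Ear2, Treml4 and Adgre4) and c26.3 (with Ccr2, Hp and Plac8 among its leading genes). Titled control cells of c26.1 (54, led by Folr2, Ms4a7 and Pf4) and c26.0 (55, led by Clec4b1, Ms4a7 and Ccr2) were put in no class. The ratios of this class thus set different clusters against each other, and the part of this was not tested. Oligodendrocyte-like cells were mostly in sub-clusters of c5 in the titled positive library and in c29, c27 and c30 in the titled control library. Fibroblast-like cells of the titled positive library were mostly in c17 (44 of 72 cells), which held 0 titled control cells.

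Of the 42 pairs, Cxcl9 had the highest fitted ratios, in endothelial cell-like, fibroblast-like and oligodendrocyte-like cells. In endothelial cell-like cells it had 187 UMIs (234 CPM) in the titled positive library and 1 UMI (0.29 CPM) in the titled control library, a log2 ratio of 9.07 with a lower bound of 7.15. In fibroblast-like cells it had 336 UMIs in the titled positive library and 0 in the titled control library, a log2 ratio of at least 6.17 by the lower limit of the exact interval, and 139 of the 336 UMIs were in 1 cell. Its log2 ratio was 5.85 in microglia-like cells and 3.73 in monocyte/macrophage-like cells. Cxcl10 had log2 ratios of 4.97 (4.44 to 5.58) in endothelial cell-like, 4.30 (3.69 to 5.06) in fibroblast-like, where the 20 UMIs of the titled control library were all in 1 cell, 3.01 (2.80 to 3.22) in microglia-like and 1.95 (1.42 to 2.59) in monocyte/macrophage-like cells.

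Cxcl1 differed in direction between classes. It was higher in fibroblast-like cells, with a log2 ratio of 4.83 (3.80 to 6.405) against 6 UMIs in 1 cell of the titled control library, and lower in monocyte/macrophage-like cells, with a log2 ratio of -2.27 (-2.55 to -1.97). The second of these rested on 1 cell of the titled control library, without which it was 1.18. In endothelial cell-like cells Cxcl1 was at 83.7 CPM in the titled positive library and 58.2 CPM in the titled control library, a log2 ratio of 0.53 (0.10 to 0.93). Cxcl2 had 66 UMIs in titled positive fibroblast-like cells and 0 UMIs in titled control ones, a log2 ratio of at least 3.79 by the lower limit of its exact interval. Cxcl5 had 35 UMIs in titled positive fibroblast-like cells and 0 UMIs in titled control ones, with a lower limit of 2.83.

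Cxcl14 was higher in fibroblast-like cells with a log2 ratio of 5.21 (4.58 to 6.01) and in monocyte/macrophage-like cells with 1.02 (0.53 to 1.60). All 862 titled positive UMIs of the fibroblast-like class were in c17, which held 0 titled control cells. In the shared clusters Cxcl14 had 0 titled positive UMIs, against 4 titled control UMIs in c20 and 14 in c21. The intervals of the ratios in c20 and c21 include no difference. Cxcl14 was lower in endothelial cell-like cells with -1.10 (-2.27 to -0.22) and in T cell-like cells with -1.41 (-2.56 to -0.04). Cxcl16 was higher in monocyte/macrophage-like cells with a log2 ratio of 1.94 (1.64 to 2.28), and in microglia-like cells it had 0.84 (0.68 to 1.01), short of the 2-fold line. In fibroblast-like cells it had -0.58 (-1.21 to 0.03), an interval that includes no difference. Cxcl12 had 0 UMIs in microglia-like cells of the titled positive library and 91 in those of the titled control library, a log2 ratio of at most -1.17 by the limit of its exact interval. The titled control level of 10.3 CPM (8.29 to 12.6) includes the 8.54 CPM that the free RNA estimate would give there.

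**Figure D4:**
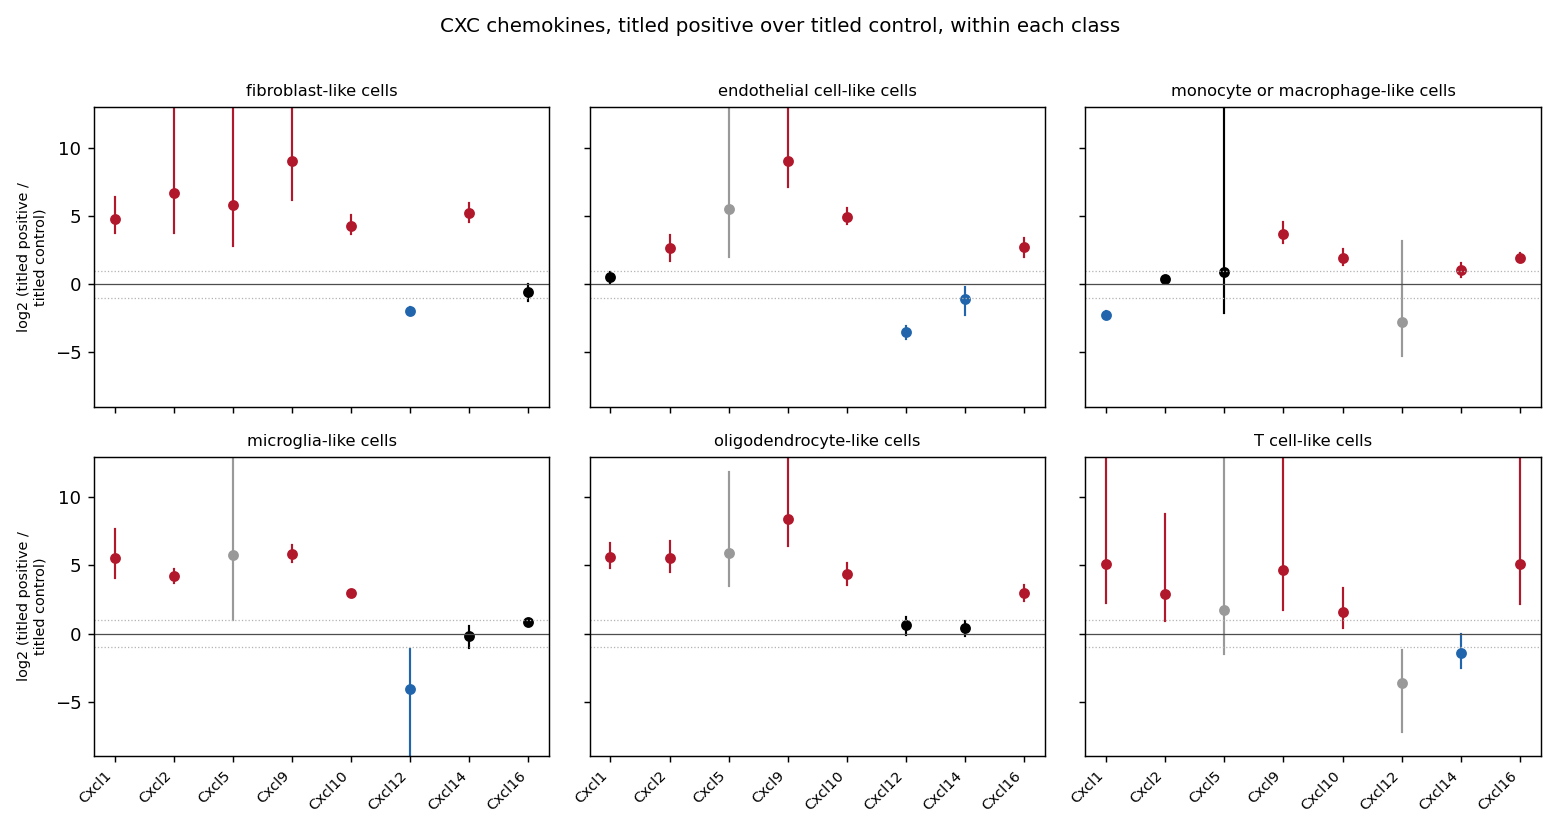
Log2 ratio of titled positive over titled control (vertical axis) for each chemokine in the 6 classes with at least 50 cells in both libraries. Points are ratios with 0.5 counts added and lines 95% exact intervals, cut at the axis ends. Red is at least 2-fold higher, blue at least 2-fold lower, black neither and grey under 10 UMIs. Cxcl9 and Cxcl10 are red in all 6 panels and Cxcl12 is blue in fibroblast-like, endothelial cell-like and microglia-like cells, the last with a titled control level whose interval includes the free RNA estimate of 8.54 CPM.

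Levels were also set against those that free RNA could give. For each gene, its level in a class was set beside the markers of the class that held most of its UMIs. In T cell-like cells Cxcl2, Cxcl5, Cxcl9, Cxcl14 and Cxcl16 stood at or below the median marker, for example Cxcl16 at 8.97% of the macrophage level with the markers at a median of 12.9% (4.32% to 38.6%). When the estimated free RNA was subtracted, the T cell-like ratios of Cxcl2, Cxcl9, Cxcl10 and Cxcl16 changed sign, with under 10 UMIs left in either library. Oligodendrocyte-like cells stood near the markers as well, with Cxcl1 at 13.3% of the carcinoma level and the markers at a median of 9.79%. Cxcl10 stood far above, at 760.3% of the carcinoma-like level in fibroblast-like cells, 389% in microglia-like cells and 282% in endothelial cell-like cells, with the highest carcinoma marker at 41.4%, 17.5% and 28.8% there. Cxcl1 in fibroblast-like cells stood at 171% and Cxcl5 at 245% of the carcinoma level, above every carcinoma marker. Cxcl9 in endothelial cell-like cells stood at 46.5% of the macrophage level with a median marker of 3.84%, although some macrophage marker reached 114% there.

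**Figure D5:**
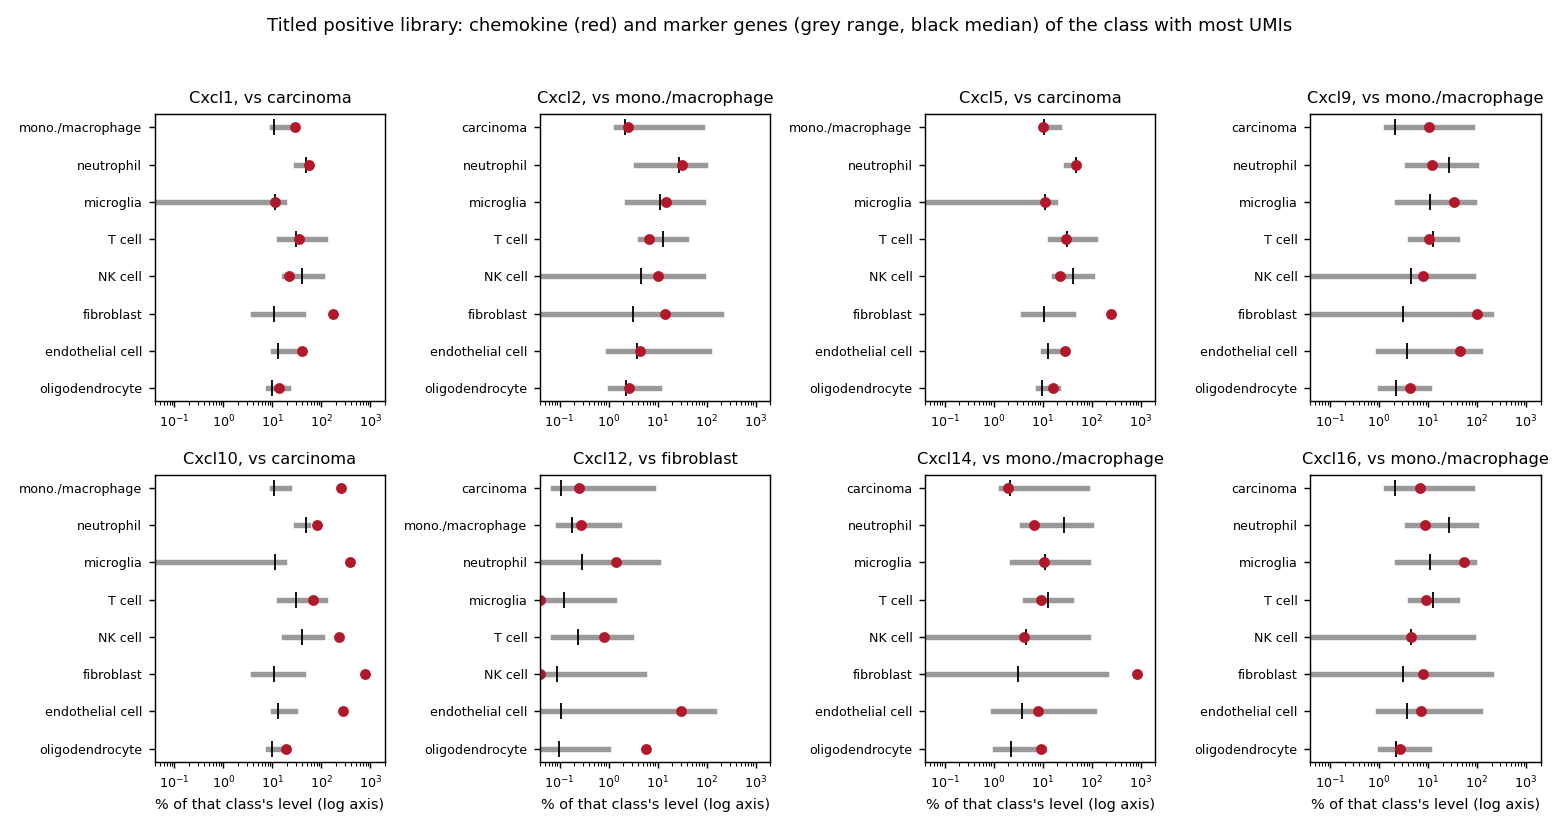
Titled positive library. For each chemokine, its level in each class (red point) as a percentage (log axis, values of 0 drawn at the left edge) of the level in the class named in the panel title, which holds most of its UMIs, beside the same percentage for the markers of that class (grey range, black median). Fibroblast-like cells lie above the grey range for Cxcl1, Cxcl5, Cxcl10 and Cxcl14, while T cell-like cells lie within it for all 8 genes.

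Of the 7 other CXC ligands examined, Cxcl11, the third interferon-induced ligand of Cxcr3, followed the pattern of Cxcl9 and Cxcl10. It had 928 CPM in fibroblast-like cells of the titled positive library and 9.58 CPM in those of the titled control library. Endothelial cell-like cells had 903 CPM in titled positive and 162 CPM in titled control cells. As counted, Cxcl11 was at least 2-fold higher in all 6 classes. Its titled positive level was low in T cell-like cells (27 UMIs, 19.9 CPM) and in oligodendrocyte-like cells (18 UMIs, 7.99 CPM). The part of free RNA in the Cxcl11 levels was not tested. Cxcl13, a B cell attractant, was highest in microglia-like cells, with 1273 CPM in the titled positive library and 423 CPM in the titled control library. Only 20.3% of titled positive and 4.14% of titled control microglia-like cells had a Cxcl13 UMI. It was among the leading genes of the small clusters c10.4, c26.2 and c26.4, and unlike the 8 members it was not kept out of the clustering. Cxcl3, which like Cxcl2 draws neutrophils, had 8.04 CPM in monocyte/macrophage-like cells of the titled positive library and 39.2 CPM in those of the titled control library, where all 16 UMIs were in 1 of 83 cells, so that the level was 0 without it.

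Among the receptors, Cxcr2 was at 215 CPM in neutrophil-like cells of the titled positive library, 28.9 CPM in monocyte/macrophage-like cells and 3.32 CPM in carcinoma-like cells. Cxcr2 was itself among the markers that named the neutrophil-like class, so its lead there was partly set by the naming. Cxcr3 was at 62.6 CPM in T cell-like cells of the titled positive library and 265 CPM in those of the titled control library, and Cxcr6 was at 172 CPM in titled positive and 690.1 CPM in titled control T cell-like cells. Both were at least 2-fold lower (log2 ratios of -2.09 and -2.003), beside a free RNA estimate of 43.1% in the titled positive T cell-like cells, and the part of free RNA was not tested. Carcinoma-like cells had 41.5 CPM of Cxcr3 and 55.96 CPM of Ackr3. Ackr1, a scavenging chemokine receptor of venous endothelium, was at 1935 CPM in endothelial cell-like cells of the titled positive library and 224 CPM in those of the titled control library, a log2 ratio of 3.11 (2.98 to 3.23). Cxcr4 stayed at or below 27.2 CPM in all 9 classes of the titled positive library. Of the 8 receptors, those higher were 0 of 4 tested in T cell-like cells (19.2% of all genes), 2 of 4 in endothelial cell-like cells (7.68%), 0 of 1 in fibroblast-like cells (17.2%), 2 of 4 in microglia-like cells (8.01%), 3 of 5 in monocyte/macrophage-like cells (14.4%) and 2 of 5 in oligodendrocyte-like cells (13.8%). Those lower were 2 of 4 in T cell-like cells (12% of all genes), 1 of 5 in monocyte/macrophage-like cells (20.6%) and 0 in the other classes. The higher receptors of oligodendrocyte-like cells were Cxcr3 (14 titled positive UMIs, 6.22 CPM) and Ackr1 (6 UMIs, 2.66 CPM). In microglia-like cells they were Cxcr2 and Cxcr4, with 4 and 5 titled positive UMIs. The part of free RNA in these receptor counts was not tested.

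Of the 9 interferon and NF-kB regulators, Ifng, the gene of interferon gamma, was at 596 CPM in T cell-like cells of the titled positive library and 114 CPM in those of the titled control library, a log2 ratio of 2.37 (1.84 to 3.003). Irf1, a transcription factor that interferon induces, was at least 2-fold higher in fibroblast-like, endothelial cell-like, microglia-like, oligodendrocyte-like and monocyte/macrophage-like cells. In fibroblast-like cells Irf1 was at 139.7 CPM in titled positive and 34.5 CPM in titled control cells. Nfkbia, the inhibitor that NF-kB induces, had log2 ratios of 1.08 in fibroblast-like, 1.63 in T cell-like and 2.48 in oligodendrocyte-like cells. Of this list, those higher were 4 of 8 tested in fibroblast-like cells (17.2% of all genes), 3 of 8 in endothelial cell-like cells (7.68%), 2 of 8 in microglia-like cells (8.01%), 1 of 9 in monocyte/macrophage-like cells (14.4%), 5 of 8 in oligodendrocyte-like cells (13.8%) and 4 of 9 in T cell-like cells (19.2%). Those lower were 3 of 8 in microglia-like cells (29.4% of all genes), 2 of 9 in monocyte/macrophage-like cells (20.6%) and 0 in the other classes. Of the proteases Adam10, Adam17 and Dpp4, which shed or trim chemokines, Dpp4 was higher in fibroblast-like cells (44.04 CPM in the titled positive and 9.58 CPM in the titled control library) and lower in monocyte/macrophage-like cells (6.1 CPM in titled positive and 41.6 CPM in titled control cells), endothelial cell-like cells (a log2 ratio of -2.77) and T cell-like cells (-2.11).

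Patterns were also compared over all 20 class sums, by Pearson's r of log2(CPM + 1) among 15167 genes, as a description, since these sums come from 2 libraries only. Cxcl2 and Cxcl9 were the most alike pair of members (r = 0.87), and Cxcl12 was negatively related to Cxcl2 (r = -0.56). The most like gene was Ms4a4a for Cxcl2 (r = 0.93), Ephb2 for Cxcl5 (r = 0.97), Bst1 for Cxcl9 (r = 0.94), Gm4951 for Cxcl10 (r = 0.88), Mxra7 for Cxcl12 (r = 0.91), Spon1 for Cxcl14 (r = 0.84), Pkib for Cxcl16 (r = 0.90) and Eif1a for Cxcl1 (r = 0.86).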

How the data were processed

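Matrices of UMI counts per gene and barcode, as deposited by the authors, were used as they stand. Cells were loaded on a Singleron GEXSCOPE chip per the labels' protocols, and Cell Ranger and GRCm38 are named in the submitters' processing notes, with the strand setting not given in the sources used here. Barcodes with under 200 genes or over 20% mitochondrial UMIs were left out, 5 titled positive and 11 titled control ones, and Scrublet in scanpy 1.11.5 removed 300 titled positive and 600 titled control doublets. Leiden clustering (resolution 1, 30 components, 2000 variable genes without the 8 members) gave 81 clusters and sub-clusters, named from markers of 23 cell types, and 39 cells whose leading genes went against their name stayed unnamed, a choice made after seeing the data. The members and gene lists were chosen with earlier results of these data known. Ratios are log2 of CPM with 0.5 counts added. A call needs a 2-fold difference and 10 UMIs in one library, and was tested on simulated data. The simulated class sums had Poisson error only and no spread between cells. That test therefore says nothing of calls where a few cells hold most of a gene's UMIs. All 8 members are named, with the lists in the text and the most alike genes by correlation (genes of at least 100 UMIs, classes of at least 50 cells). GENCODE M21 matched 29170 of 29217 gene identifiers. Alternatives changed doublet removal, resolution, genes clustered, naming, the mitochondrial limit, scaling (edgeR 4.0.16 TMM, median-of-ratios), depth, pseudocount and free RNA. One gene of the regulator list is counted in the list totals and is not reported here by itself. The ratios within single fibroblast-like clusters, the levels without 1 cell and the level expected from free RNA were added after seeing the data.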

Additional observations from a re-analysis of the deposited data

Results flagged for a closer look

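As counted, Cxcl1 and Cxcl14 had ratios of opposite sign in different classes, and the difference between the classes was not tested. The log2 ratio of Cxcl1, titled positive over titled control, was 5.611 in oligodendrocyte-like cells and -2.2733 in monocyte/macrophage-like cells. Beside the first, carcinoma markers in oligodendrocyte-like cells of the titled positive library stood at a median of 9.79% of their carcinoma-like level, with Cxcl1 at 13.3%. Beside the second, 106 of the 115 Cxcl1 UMIs of the titled control class were in 1 cell, without which the ratio was 1.18 and Cxcl1 was lower in none of the 6 classes compared. The log2 ratio of Cxcl14 was 5.2077 in fibroblast-like cells and -1.4052 in T cell-like cells, where it rested on 20 and 9 UMIs, a level of 14.7 CPM in the titled positive class, where the free RNA estimate would give 16.6 CPM. All 862 titled positive fibroblast-like UMIs of Cxcl14 were in cluster c17, which held 0 titled control cells.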

How the results depend on the processing

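Of 504 recomputed log2 ratios, 409 stayed within their main interval, 90 moved out of it and 5 reversed. With the estimated free RNA subtracted, the ratios in T cell-like cells became -0.81192 for Cxcl10, -1.8544 for Cxcl16, -3.2194 for Cxcl2 and -1.8544 for Cxcl9. Under that setting 0 T cell-like pairs kept 10 UMIs. Without the cell highest for the member, an alternative chosen after seeing the data, Cxcl1 in monocyte/macrophage-like cells became 1.1766. Naming each cell by its own markers left 22 pairs in 3 classes, with 15 higher and 3 lower. In the titled positive library the highest class stayed the same for 7 or 8 of the 8 members under every alternative run. In the titled control library it was less stable. Ependymal cell-like cells led for 3 members with the members kept in the clustering, and for 2 at the 10% mitochondrial limit, with own-marker naming, by mean per-cell CPM, without doublet removal and thinned to 1000 UMIs. Fibroblast-like cells led for 0 members at resolution 2, at the 10% limit, with own-marker naming, with estimated free RNA subtracted, by mean per-cell CPM, when thinned and without the highest cell. Microglia-like cells led for 0 at resolution 2 and when thinned, and for 2 at the 10% limit, with own-marker naming and with the members kept. Monocyte/macrophage-like cells led for 0 at the 10% limit, with own-marker naming, with the members kept and without doublet removal, and for 1 when thinned and without the highest cell. In the settings where they led for 0, fewer than 6 classes could be compared (3 with own-marker naming, 5 in the others). Whether monocyte/macrophage-like cells of the titled control library still had enough cells to be ranked there is not reported. A lead for 0 members therefore need not mean that another class had a higher level. The cause of the changes in the highest class was not tested. No paired analysis was possible because each group holds 1 library.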
